A study of Capra hircus with 3 samples.

Results

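The lymphocytes described here are cells of the fetal goat gonad that carried RNA of CTSW (cathepsin W, a protease of cytotoxic lymphocytes), IL2RB (the receptor chain shared by IL-2 and IL-15), CRTAM (an adhesion receptor of activated CD8 T and NK cells) or GZMA (granzyme A, a granule protease). A cell barcode with at least 1000 UMIs (unique molecular identifiers, each standing for a captured RNA molecule) and at most 20% mitochondrial UMIs was a member when the UMIs of these 4 genes summed to at least 2. Barcodes with at least 2 UMIs of IL26 and TRDC together, at least 5 UMIs of the complement genes C1QA, C1QB and C1QC, or at least 5 UMIs of AMH were left out. The rule found 572 of 20825 passing barcodes, 173 of 6376 at E85, 369 of 7124 at E105 and 30 of 7325 in the library labelled E125. They are called CTSW IL2RB lymphocytes below, because CTSW and IL2RB made up nearly all UMIs that chose them.

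Cells were dissociated from the testes of male goat (Capra hircus) fetuses at 3 embryonic stages, E85, E105 and E125, digested with collagenase IV, hyaluronidase, trypsin and DNase I and loaded on a 10x Genomics droplet system. There was 1 library per stage and no treatment. The labels give no breed, no number of fetuses and no cell sort. With 1 library per stage no test between stages is possible, and all intervals below are exact 95% intervals that cover counting error only.

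Cytotoxic lymphocytes kill target cells by releasing perforin and granzymes from granules or by presenting death ligands such as FASLG. They comprise CD8 T cells, which sense their targets through the T-cell receptor and its CD3 chains, and NK cells and related innate lymphocytes, which use receptors such as KLRK1 (NKG2D) with the adaptor HCST. In the mammalian fetus the earliest T cells leave the thymus and settle in tissues before birth, and in mouse and human the RNA-binding protein LIN28B promotes lymphocyte development of the fetal type.

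The content of the library labelled E125 went against its label. AMH, the Sertoli cell hormone of the fetal testis, stood at 1401, 3817 and 31.6 counts per 1000000 UMIs (CPM) over the passing barcodes of E85, E105 and E125. ZP3, an egg coat protein gene, stood at 1.17, 2.51 and 2109 CPM, FIGLA, an oocyte transcription factor, at 1.10, 0.281 and 792 CPM, and SRY had 5, 5 and 0 UMIs. Values from that library are therefore given apart from the other 2 and each comparison is given without it. The libraries held 7478, 8520 and 8346 barcodes and 45339231, 40741902 and 49692252 UMIs, and 27, 23 and 22 of their barcodes also occurred in another library, among them 1, 1 and 0 members.

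CTSW set the rule nearly alone, which is a description of the choice and not a result. It was found in 165 of 173 members at E85, 357 of 369 at E105 and 25 of 30 in the E125-labelled library, and held 88.5%, 91.4% and 70.9% of the UMIs of the 4 genes. CTSW was the only one of the 4 genes in 40, 90 and 5 members. IL2RB was found in 126, 269 and 25 members and CRTAM in 31, 68 and 4. GZMA was found in 7, 10 and 0 members, where 0 of 30 allows up to 11.6% of barcodes with a GZMA UMI and sets no limit on cells that express the gene. Stromal barcodes, of a cell type that should lack CTSW, had at least 5 UMIs of DCN, no PTPRC and fewer than 5 UMIs of AMH. Members that met these limits were not removed. The stromal barcodes carried CTSW in 3.22%, 4.61% and 0.145% of cases. Their medians were 2131, 2291 and 3225 UMIs per barcode, against 4663, 5057 and 4934 UMIs per member. For the stromal ratios between libraries below, members and the barcodes with IL26 and TRDC were left out and AMH was not limited.

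PTPRC, the pan-leukocyte phosphatase CD45, was not part of the rule and was found in 158 of 173 members at E85, 342 of 369 at E105 and 21 of 30 in the E125-labelled library. Its detection followed the number of UMIs that chose a member. Of the barcodes just inside the rule, with 2 UMIs, 11 of 20, 6 of 15 and 1 of 4 had a PTPRC UMI. Of those just outside, with 1 UMI, 25 of 158, 35 of 235 and 8 of 34 had one. With 11 or more UMIs the shares were 98 of 98, 275 of 285 and 12 of 14.

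**Figure D1:**
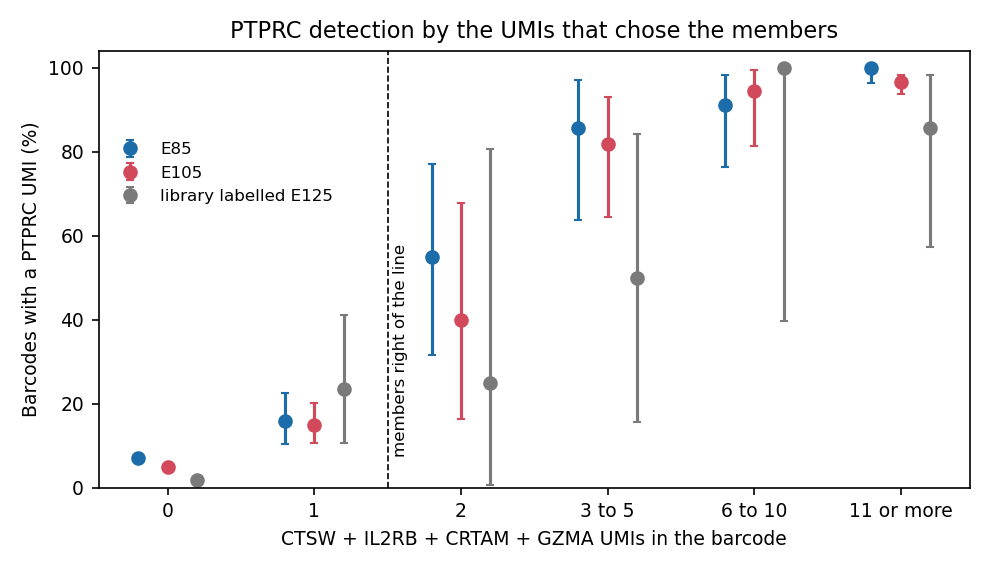
Share of barcodes with a PTPRC UMI (y axis, percent) by the summed UMIs of CTSW, IL2RB, CRTAM and GZMA (x axis) in the 3 libraries, with exact 95% intervals. Members lie right of the dashed line. The share was 15.8%, 14.9% and 23.5% at 1 UMI and 100%, 96.5% and 85.7% at 11 or more, in the order E85, E105, E125.

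Some members did not look like lymphocytes. The germ cell helicase gene DDX4 had a UMI in 11 members at E85, 9 at E105 and 3 in the E125-labelled library. In that library, 2 members with 168057 and 283741 UMIs, neither with a PTPRC UMI and both with at least 3 UMIs of ZP3, held 73.3% of all member UMIs. Summed levels are therefore given over the members with a PTPRC UMI, no DDX4 UMI and at most 30000 UMIs, a set chosen after these values were seen: 150 at E85, 337 at E105 and 21 in the E125-labelled library, called PTPRC members below. In the PTPRC members 7 stromal genes summed to 324, 315 and 259 CPM and were found in 23, 53 and 8 cells. Endothelial genes summed to 97.5, 94.3 and 49.8 CPM and were found in 44, 130 and 5 cells. Macrophage genes summed to 45.5, 27.6 and 0 CPM, with CSF1R, CD14 and CD163 at 0 in all 3 libraries, B-cell genes to 29.9, 5.83 and 0 CPM, Sertoli genes to 55.9, 73.7 and 120 CPM, dendritic cell genes to 15.6, 14.3 and 0 CPM and germ cell genes to 24.7, 5.83 and 29.9 CPM. The filters set part of these sums, since the germ cell list holds DDX4, the Sertoli list AMH and the macrophage list the C1Q genes. Of the endothelial genes, EGFL7 had no UMI in the PTPRC members of any library, and CDH5 and TIE1 had none at E105 and in the E125-labelled library. Endothelial genes were also found in 44 of 98, 62 of 155 and 34 of 76 barcodes with IL26 and TRDC, so they were not particular to the members. The part of the RNA of other cell types in the results below was not tested.

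Granule and death-ligand genes outside the rule were present in a minority of members. PRF1, which encodes the pore-forming protein perforin, was found in 53 of 173 members at E85, 113 of 369 at E105 and 9 of 30 in the E125-labelled library, against 0 of 2047, 1 of 3188 and 1 of 4125 stromal barcodes. Summed over the PTPRC members, PRF1 stood at 101 CPM (95% interval 80.1 to 127) at E85, 93.8 CPM (80.5 to 109) at E105 and 99.6 CPM (47.8 to 183) in the E125-labelled library, 3 levels whose intervals overlap. FASLG, the Fas ligand, stood at 83.2, 55.1 and 29.9 CPM in 51, 75 and 3 PTPRC members. NKG7, a granule membrane protein, was found in 20, 62 and 1 of them, TNFSF10, which encodes the death ligand TRAIL, in 26, 74 and 1, and SRGN, the proteoglycan core on which granzymes are packed, in 51, 136 and 4. CST7, an inhibitor of granule cathepsins, was found in 7, 14 and 0 cells, and RAB27A and STX11, both needed for granule release, in 8, 18 and 3 and in 9, 38 and 2. GZMK had no UMI in any member, and GZMB, GZMH, GZMM and GNLY are not among the gene symbols of the files. The cytotoxic name thus rests on CTSW and on PRF1, found in at most 30.6% of the members of a library, with few granzyme UMIs.

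NK-type receptors were unevenly present. HCST, the signalling adaptor of KLRK1, was found in 78 of 150, 198 of 337 and 10 of 21 PTPRC members, at 159, 187 and 159 CPM. KLRK1 itself was found in 48, 69 and 8 of them at 109, 63.6 and 179 CPM. NCR3, the activating receptor NKp30, was found in 46, 153 and 9, KLRG1, an inhibitory receptor of mature effector cells, in 26, 111 and 6, and CD226, a receptor for nectin-family ligands, in 32, 93 and 2. SH2D1A, the SAP adaptor used by SLAM-family receptors in T and NK cells, stood at 523, 401 and 130 CPM in 102, 200 and 6 PTPRC members. NCR1 (NKp46), TYROBP (the adaptor DAP12) and SH2D1B (the adaptor EAT-2), genes of mature NK cells, had no UMI in any member of any library, and KLRF1 had UMIs in 0, 1 and 1 members. KLRD1, KLRB1, FCGR3A and FCER1G are not among the symbols, so a decision between T and NK identity cannot rest on those genes here.

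T-lineage genes were frequent. LCK, the kinase that starts T-cell receptor signalling, was found in 99 of 150, 265 of 337 and 18 of 21 PTPRC members at 304, 338 and 409 CPM. THEMIS, a thymocyte selection protein, was found in 75, 173 and 2 at 183, 178 and 19.9 CPM, and SKAP1, an adaptor linking the T-cell receptor to integrins, in 66, 212 and 13 at 144, 220 and 199 CPM. CD2, a T and NK cell adhesion receptor, was found in 39, 91 and 1. The CD3 genes were found far less often: CD3G in 24, 55 and 1 PTPRC members, CD3E in 14, 23 and 0 and CD3D in 2, 16 and 1. Any of the 3 CD3 genes was found in 39 of 173 members (22.5%, 16.5 to 29.5) at E85, 91 of 369 (24.7%, 20.3 to 29.4) at E105 and 3 of 30 (10.0%, 2.11 to 26.5) in the E125-labelled library, against 0.244%, 0.0314% and 0.0242% of stromal barcodes. With each barcode thinned to 1000 UMIs these shares were 6.94%, 5.96% and 0%, so they depend on depth.

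Of the coreceptors, CD8A was found in 16, 34 and 1 members and CD4 in 1, 6 and 1. No member of E85 or E105 had both, but CD4 was found in too few members for this to show whether these genes exclude each other. In the E125-labelled library the member with CD8A also had CD4. CD8B is not among the symbols. CD40LG, the CD40 ligand of activated helper T cells, was found in 48, 106 and 0 PTPRC members, the last 0 among 100367 UMIs, and ICOS, a costimulatory receptor, in 46, 71 and 4. FOXP3, the regulatory T-cell factor, had UMIs in 1, 1 and 0 members.

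**Figure D2:**
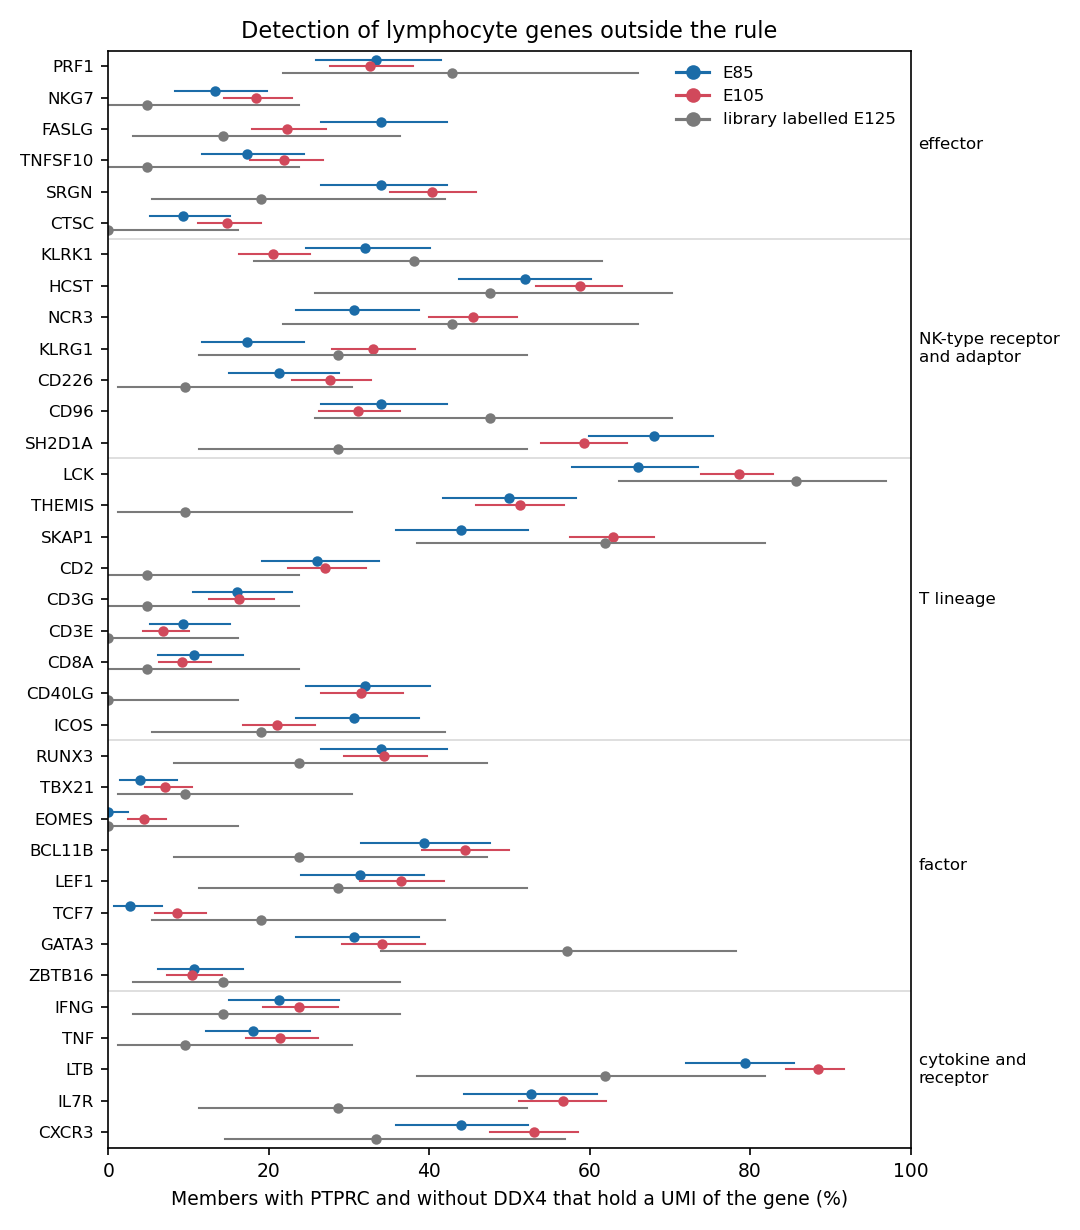
Share of PTPRC members (150 at E85, 337 at E105, 21 in the E125-labelled library) with a UMI of each of 35 genes outside the rule (x axis, percent), grouped by role, with exact 95% intervals. LTB was found most often at E85 and E105, while CD3E, CD8A, TBX21, EOMES and TCF7 stayed below 20% at E85 and E105.

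Transcription factors were unevenly found. RUNX3, a factor of CD8 T and NK cells, was found in 51, 116 and 5 PTPRC members, BCL11B, the T-lineage commitment factor, in 59, 150 and 5, GATA3 in 46, 115 and 12 and LEF1, a factor of naive T cells, in 47, 123 and 6. TBX21 (T-bet), the driver of the IFNG program, was found in 6, 24 and 2, and EOMES, its paralog in memory and NK cells, in 0, 15 and 0. TCF7, the partner of LEF1 in naive T cells, was found in 4, 29 and 4. ZBTB16, the PLZF factor of innate-like T cells, was found in 16, 35 and 3.

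Of the cytokines, lymphotoxin beta (LTB), which patterns lymphoid tissue, was the most widely found, in 119, 298 and 13 PTPRC members at 693, 1068 and 678 CPM. IFNG was found in 32, 80 and 3 and TNF in 27, 72 and 2. IL22 had no UMI in any member, and IL17A had UMIs in 1, 0 and 0. Of the receptors, IL7R, the survival receptor of T cells and innate lymphocytes, was found in 79, 191 and 6 PTPRC members at 286, 302 and 199 CPM, and CXCR3, the chemokine receptor of type 1 lymphocytes, in 66, 179 and 7 at 118, 155 and 79.7 CPM. CCR7 was found in 0, 1 and 0 members and S1PR1, the exit receptor of recirculating cells, in none. CD69, an early activation and tissue-retention receptor, was found in 36, 115 and 3 and the integrin chain ITGAL in 99, 218 and 13.

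LIN28B, which blocks maturation of let-7 microRNAs, was found in 69 of 150 PTPRC members at E85, 164 of 337 at E105 and 1 of 21 in the E125-labelled library. Its level was 135 CPM (110 to 164), 157 CPM (140 to 176) and 9.96 CPM (0.252 to 55.5). In the passing barcodes outside the lymphocytes it stood at 31.9, 18.8 and 5.09 CPM. It was thus low in the E125-labelled library both in members and in the other cells of that library.

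The members were 2.71% (2.33 to 3.14) of the passing barcodes at E85, 5.18% (4.68 to 5.72) at E105 and 0.410% (0.276 to 0.584) in the E125-labelled library. The PTPRC members were 2.35% (1.99 to 2.75), 4.73% (4.25 to 5.25) and 0.287% (0.178 to 0.438), in the same order of the 3 libraries. The median number of UMIs that chose a member was 13, 26 and 9.5. Summed over the PTPRC members, CTSW itself stood at 3914, 5283 and 3019 CPM, and in the passing barcodes outside the lymphocytes at 9.63, 17.9 and 0.149 CPM. With 1 library per stage, stage, dissection and library cannot be told apart in these shares. The content of the library labelled E125, which went against its label, cannot be told apart from them either.

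Between E105 and E85, most granule and T-cell receptor genes of the PTPRC members stayed within 2-fold, while 4 of 15 proliferation genes were at least 2-fold lower at E105 and KLRG1, BTG1 and JUN were at least 2-fold higher. Genes with a symbol and at least 20 UMIs over both sums were compared, and a ratio of at least 2 or at most 0.5 was counted as past 2-fold. Of 4686 such genes, 248 (5.29%) were higher and 150 (3.2%) lower at E105, with a median log2 ratio of -0.06. Over all 173 and 369 members, germ cell RNA included, 218 of 5398 genes (4.04%) were higher and 347 (6.43%) lower, with a median of -0.14.

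Of 10 granule and death-ligand genes with enough UMIs, 0 were past 2-fold in either direction, with a list median log2 ratio of -0.09. PRF1 had a ratio of 0.925 (0.705 to 1.22) and FASLG of 0.663 (0.481 to 0.919). Of 8 NK-type receptor genes, KLRG1 alone was past 2-fold, at 158 CPM at E105 against 61.1 CPM at E85 (ratio 2.59, 1.90 to 3.61), and the list median was 0.23. NCR3 stood at 111 CPM at E105 and 71.5 CPM at E85 (1.56, 1.15 to 2.14), whereas KLRK1 stood at 63.6 CPM at E105 and 109 CPM at E85 (0.582, 0.437 to 0.779). KLRG1 and KLRK1 were found together in 18 of the 119 members with KLRG1 at E105 and in 10 of the 27 at E85. KLRK1 without KLRG1 was found in 52 members at E105 and in 42 at E85. Whether the joint counts differ from what the shares of the 2 genes alone would give was not tested, so they do not show separate sets of cells.

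Of 16 T-cell receptor genes, 1 was past 2-fold, LAT, the scaffold of T-cell receptor signalling, with 19 UMIs at E105 and 2 at E85, and the list median was -0.07. Of 9 naive, helper and innate-type factors, TCF7 was past 2-fold with 37 UMIs at E105 and 4 at E85 (ratio 3.77, 1.35 to 14.6). Of 8 effector-lineage factors, IKZF2 (Helios) was lower, at 14.8 CPM at E105 against 36.4 CPM at E85 (0.408, 0.233 to 0.714). LTB stood at 1068 CPM at E105 and 693 CPM at E85 (1.54, 1.40 to 1.70), short of the 2-fold limit.

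Of 6 cytokine genes, 2 were past 2-fold, and both rested on very few cells. IFNG stood at 115 CPM at E105 and 55.9 CPM at E85 (2.07), but 1 barcode held 59 of its 218 UMIs at E105, and without that barcode the ratio was 1.53. IL4 had 22 UMIs at E105, in 2 cells, and 0 at E85. Of 15 homing and residency genes, GPR183, an oxysterol receptor, was higher at 29.1 CPM at E105 against 9.10 CPM at E85 (3.20, 1.46 to 8.34), CCR9, a gut and thymus homing receptor, had 19 UMIs at E105 and 3 at E85, and RGS1, a brake on chemokine receptor signalling, was lower at 69.9 CPM at E105 against 165 CPM at E85 (0.424, 0.330 to 0.545).

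Proliferation genes had the lowest median of the lymphocyte gene lists at E105. Of 15 with enough UMIs, 4 were at least 2-fold lower and 0 higher, and the list median log2 ratio was -0.72. CENPF, a kinetochore protein of dividing cells, stood at 140 CPM at E105 and 353 CPM at E85 (0.397, 0.334 to 0.472). TOP2A, the topoisomerase of replicating cells, stood at 132 CPM at E105 and 272 CPM at E85 (0.486, 0.403 to 0.587), and at 0.558 without the E85 barcode richest in it, which held 32 of its 209 UMIs there. PCNA and MCM3, replication genes of the list, had ratios of 1.20 and 1.19. The spindle gene DLGAP5 (0.269, 0.168 to 0.426) and the chromosomal passenger gene CDCA8 (0.282, 0.169 to 0.463) were lower too. In stromal barcodes the E105 over E85 ratio of CENPF was 0.516 and that of TOP2A 0.791, and in the passing barcodes outside the lymphocytes they were 0.939 and 1.15.

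Of the genes with the firmest higher ratios at E105, some were also higher in stromal barcodes. BTG1, an antiproliferative cofactor, stood at 193 CPM at E105 and 42.9 CPM at E85 in PTPRC members (4.50, 3.15 to 6.63), and its ratio was 3.62 in stromal barcodes. JUN, a subunit of AP-1, stood at 392 CPM at E105 and 101 CPM at E85 (3.86, 3.06 to 4.94), with 3.76 in stromal barcodes, and SMAP1, a regulator of vesicle traffic, had 4.16 with 3.12 in stromal barcodes. By contrast S100A10 stood at 101 CPM at E105 and 24.7 CPM at E85 (4.08, 2.54 to 6.92), with 1.65 in stromal barcodes, and the kinase gene STK17A at 368 CPM at E105 and 116 CPM at E85 (3.18, 2.55 to 4.01), with 1.22. For KLRG1 the stromal ratio was 1.25. RHEX, an adaptor known from erythroid cells, stood at 107 CPM at E105 and 24.7 CPM at E85 (4.33, 2.70 to 7.35) and below 1 CPM outside the lymphocytes of either library.

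Among the genes lower at E105, the chaperone genes HSPH1 (60.4 CPM at E105, 174 CPM at E85; 0.347, 0.268 to 0.449) and HSP90AA1 (1518 CPM at E105, 3135 CPM at E85; 0.484, 0.458 to 0.511) were also lower in stromal barcodes, at 0.581 and 0.679. Without the E85 member richest in it, HSP90AA1 had a ratio of 0.521. The interferon-induced gene ISG15 stood at 27.0 CPM at E105 and 74.1 CPM at E85 in PTPRC members (0.365, 0.245 to 0.542), and its stromal ratio was 1.49. The E85 member richest in ISG15 held 19 of its 57 UMIs there, and without that member the ratio was 0.546.

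**Figure D3:**
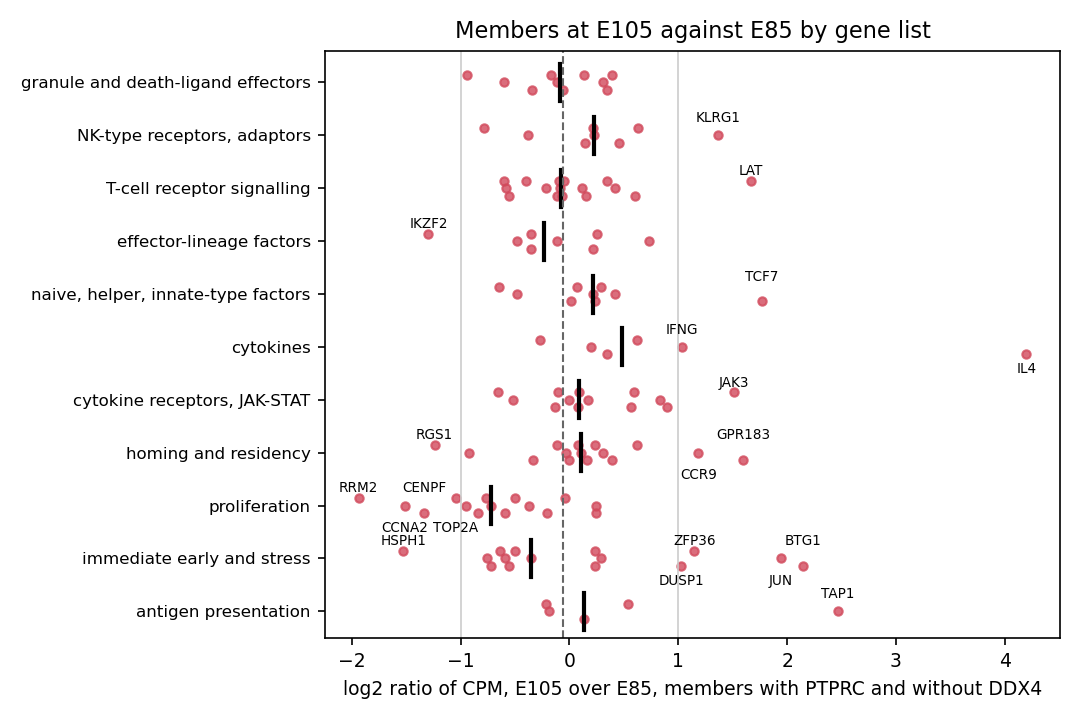
Log2 ratio of CPM at E105 over E85 (x axis) in PTPRC members for each gene with at least 20 UMIs, by gene list (rows). Points are genes, black bars list medians, the dashed line the median of all 4686 genes, and grey lines mark 2-fold; the proliferation median lies at -0.72, and the granule, T-cell receptor and cytokine receptor medians lie at -0.09, -0.07 and 0.09.

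Counted per cell, dividing members were a smaller share at E105. Members with at least 3 UMIs of 8 mitosis genes numbered 28 of 173 (16.2%) at E85, 29 of 369 (7.86%) at E105 and 3 of 30 in the E125-labelled library, and among the PTPRC members 19 of 150 (12.7%, 7.80 to 19.1), 25 of 337 (7.42%, 4.86 to 10.8) and 1 of 21. With each barcode thinned to 1000 UMIs the PTPRC member shares were 6.67%, 2.67% and 0%. In stromal barcodes the unthinned shares were 8.79%, 5.36% and 7.01%, so the order of E85 and E105 was the same there. The intervals of the members at E85 and E105 overlap.

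The dividing PTPRC members, 19 at E85 and 25 at E105, were set beside the other PTPRC members of the same library, at medians of 7095 against 4499 UMIs at E85 and 9213 against 5038 UMIs at E105. CTSW, whose UMIs chose the members, is given as a description only: it stood at 1758 CPM in the dividing cells against 4560 CPM in the others at E85 and at 1998 against 5816 CPM at E105. LTB had ratios of 0.496 and 0.268, PRF1 of 0.278 and 0.571, HCST of 0.330 and 0.533 and CD44, an adhesion receptor of antigen-experienced cells, of 0.476 and 0.479. ID3, an inhibitor of E-protein factors, was higher at both stages (2.90, 1.92 to 4.37, and 2.48, 1.75 to 3.45). LCK had ratios of 0.751 and 0.911, with intervals that include 1. ICOS and IFNG had ratios of 3.08 and 2.98 at E105 but 0.918 and 0.883 at E85. At E105, 1 of the dividing cells held 59 of the 218 IFNG UMIs of all PTPRC members. The IFNG ratio there thus rests largely on 1 cell, and it was not computed without that cell. The intervals treat UMIs as independent and these sets hold few cells.

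Members with a CD3 UMI, 39 at E85 and 91 at E105, were set beside those without one. All members were used here, not only the PTPRC members. Of those with CD3, 38 and 88 had a PTPRC UMI, so most members without PTPRC fell into the sets without CD3. PTPRC itself had ratios of 1.19 (1.00 to 1.40) at E85 and 1.24 (1.11 to 1.38) at E105, and the part of this in the ratios below was not tested. The medians of the members with CD3 were 4707 and 5682 UMIs, against 4561 and 4816 in the members without, so detection of CD3 went with depth. SH2D1A was higher in the members with CD3 at both stages, at 613 against 395 CPM at E85 (1.55, 1.26 to 1.91) and 498 against 332 CPM at E105 (1.50, 1.29 to 1.74). Of the mitosis genes with enough UMIs, 1 of 5 at E85 and 4 of 6 at E105 had an interval above 1. TPX2 had ratios of 1.76 at E85 and 1.69 at E105, TOP2A of 1.14 and 2.47, CENPF of 1.01 and 1.73 and KIF11 of 0.870 and 3.17. PRF1 had a ratio of 0.820 (0.457 to 1.40) at E85 and 1.67 (1.22 to 2.27) at E105, and LEF1 of 2.02 at E85 and 0.981 at E105. LCK (1.14 and 0.998), KLRG1 (1.18 and 0.981), BCL11B (0.913 and 0.902) and CD40LG (1.03 and 1.06) had intervals that include 1 at both stages.

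The library labelled E125 gave 21 PTPRC members with 100367 UMIs in all, so its values are coarse. Against E85, 361 of 2702 genes (13.4%) were at least 2-fold higher and 479 (17.7%) lower in it, with a median log2 ratio of 0.12. Over all 30 members, including the 2 barcodes rich in ZP3, 1608 of 4710 genes (34.1%) were higher and 1041 (22.1%) lower. This comparison uses the same E85 members as the one at E105.

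Dividing-cell genes, the T and NK cell adaptor gene SH2D1A and the T-lineage gene THEMIS were lower in the E125-labelled library. T-lineage genes did not move together, since the levels of LCK and SKAP1 given above were higher there than at E85. Of 11 proliferation genes with enough UMIs, 8 were at least 2-fold lower, 1 was higher and the median log2 ratio was -1.09. Dividing PTPRC members there were 1 of 21 (4.76%, 0.120 to 23.8), an interval that includes the 12.7% at E85. These ratios thus rest on few dividing cells. CENPF stood at 9.96 CPM there and 353 CPM at E85, and the linker histone gene H1-5 had 0 UMIs there, where 3 UMIs would be 29.9 CPM, and 270 CPM at E85. SH2D1A stood at 130 CPM there and 523 CPM at E85 (0.248, 0.131 to 0.429) and THEMIS at 19.9 CPM there and 183 CPM at E85 (0.109, 0.0130 to 0.400). In IL26 TRDC lymphocytes of the same 2 libraries the THEMIS ratio was 0.488, that of SH2D1A 0.397 and that of CENPF 2.30. CRABP1, which binds retinoic acid inside the cell, was higher in the E125-labelled library, at 847 CPM in 12 of 21 PTPRC members against 10.4 CPM at E85, and it was also higher in IL26 TRDC lymphocytes (14.6) and stromal barcodes (4.98). BTG1 had 5.57 in PTPRC members and 8.93 in stromal barcodes, and the transcription factor gene KLF13 14.2 and 12.7.

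The members were set beside the IL26 TRDC lymphocytes, barcodes with at least 2 UMIs of IL26, a cytokine of the IL-10 family, and TRDC, the constant region of the T-cell receptor delta chain, under the same limits on AMH and C1Q. They numbered 98, 155 and 76 barcodes. Most of them also carried the 4 genes of the rule: 80, 143 and 64 barcodes with at least 2 UMIs of those genes were kept out of the members by IL26 and TRDC, against 18, 23 and 0 kept out by AMH. CTSW stood at 3391, 4961 and 529 CPM in all members and 2457, 5945 and 1277 CPM in the IL26 TRDC lymphocytes. The comparison below uses the barcodes of both groups with PTPRC, without DDX4 and with at most 30000 UMIs, which are 84, 139 and 68 IL26 TRDC lymphocytes, within each library.

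Within single libraries, 368 of 3530 genes (10.4%) at E85, 330 of 4720 (6.99%) at E105 and 331 of 1855 (17.8%) in the E125-labelled library were past 2-fold in either direction between the 2 kinds of lymphocyte. Few genes were past it in the same direction in several libraries. Taken singly, 4.39% of genes were at least 2-fold higher and 6.03% lower in the members at E85, and 3.43% and 3.56% at E105. At E85 and E105 together, 9 of 3490 genes (0.258%) were at least 2-fold higher and 32 (0.917%) lower in the members in both libraries. In all 3 libraries it was 0 of 1761 (0%) and 12 (0.681%). How many genes the single shares alone would place in several libraries was not tested. The lower genes include IL26 and TRDC, which defined the other group, in both counts, and GZMA, a gene of the rule, at E85 and E105. The set of all barcodes, which includes germ cell RNA in the members, gave 101 of 4028 (2.51%) higher and 31 (0.77%) lower in E85 and E105, and 23 (0.713%) and 9 (0.279%) of 3228 in all 3. List medians at E85 and E105 were 0.03 and 0.07 for the granule genes, 0.10 and 0.10 for NK-type receptors and 0.18 and 0.12 for T-cell receptor genes, beside -0.07 and -0.06 over all genes.

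NUCB2, a calcium-binding protein gene, was higher in the members at E85 (343 against 119 CPM; 2.89, 2.21 to 3.83) and at E105 (351 against 154 CPM; 2.27, 1.86 to 2.80) but not in the E125-labelled library (49.8 against 114 CPM). CXCR3 stood at 118 against 39.6 CPM at E85 (2.99, 1.88 to 4.95) and 155 against 103 CPM at E105 (1.50, 1.17 to 1.96). In the E125-labelled library it stood at 79.7 against 47.2 CPM (1.69, 0.631 to 4.13), an interval that includes 1. LEF1 was higher in the members of each library, with ratios of 3.02, 1.53 and 3.17, and CD84, a SLAM-family receptor, likewise with 3.36, 1.41 and 4.49. SLAMF1, the founding receptor of that family, had 2.72 and 1.72 at E85 and E105, and LIN28B 1.71 and 1.73. TIMP1, a metalloproteinase inhibitor, had 1.48, 1.45 and 3.66.

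OCIAD2, a mitochondrial and endosomal membrane protein gene, was lower in the members of every library, at 307 against 876 CPM at E85 (0.350, 0.299 to 0.410), 308 against 663 CPM at E105 (0.465, 0.412 to 0.526) and 428 against 915 CPM in the E125-labelled library (0.468, 0.332 to 0.644). CTSS, an antigen-processing protease, had 0.244, 0.277 and 0.141. Together with AIF1 (0.277 and 0.0898 at E85 and E105) and HLA-DRA (0.362 and 0.168), it belongs to genes known from antigen-presenting cells. Among all IL26 TRDC lymphocytes, AIF1 was found in 5 of 98, 7 of 155 and 2 of 76 barcodes and HLA-DRA in 12, 10 and 3, so few barcodes carried them, and their part in these ratios was not tested. KLRK1 was lower in the members at E85 (109 against 174 CPM; 0.628, 0.465 to 0.848) and E105 (63.6 against 89.9 CPM; 0.708, 0.520 to 0.969) and higher in the E125-labelled library (179 against 88.8 CPM; 2.02, 1.07 to 3.71).

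KLRG1, CD40LG and CD6, a T-cell adhesion receptor, were higher in the members at E85 by more than 2-fold (4.44, 3.16 and 4.84). At E105 their ratios were 1.23, 1.06 and 1.58. In the E125-labelled library KLRG1 had 0.658 (0.334 to 1.20). CD40LG and CD6 had 0 and 1 UMIs in the members there, against 5 and 4 in the IL26 TRDC lymphocytes. The KLRG1 level in the IL26 TRDC lymphocytes was 129 CPM at E105 and 13.8 CPM at E85, so both kinds of lymphocyte carried more KLRG1 RNA at E105. PRF1 (1.18, 1.08 and 1.50), HCST (1.07, 0.972 and 1.22) and RUNX3 (1.13, 1.07 and 0.613) had intervals that include 1 in each library. IFNG had 1.71 and 1.79 at E85 and E105 and 0.192 (0.0385 to 0.592) in the E125-labelled library, where the members held 3 UMIs of it. At E105, 1 member held 59 of the 218 IFNG UMIs, and the members stood at 85.3 CPM without it, so that ratio rests in part on 1 cell.

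**Figure D4:**
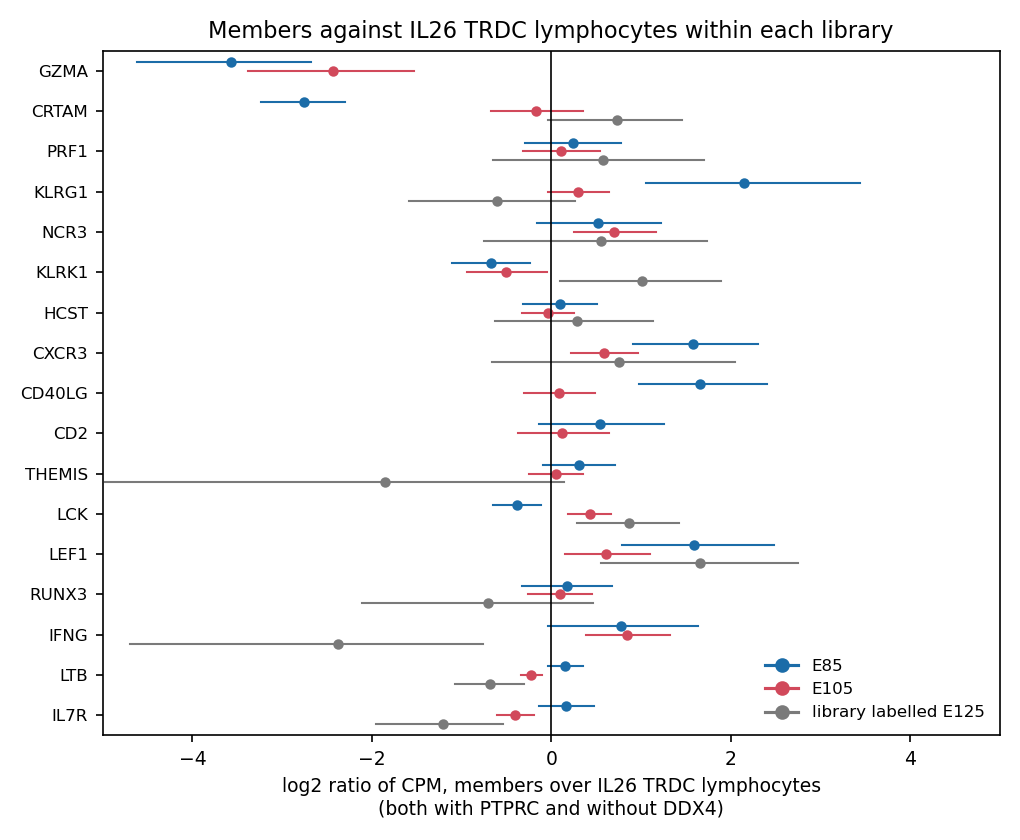
Log2 ratio of CPM, PTPRC members over IL26 TRDC lymphocytes of the same library (x axis), for 17 lymphocyte genes (rows), with exact 95% intervals. GZMA and CRTAM helped to choose the members and are shown as a description. CXCR3 and LEF1 lie right of 0 in each library, but the CXCR3 interval crosses 0 in the E125-labelled library. The intervals of PRF1 and HCST cross 0 in each library.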

How the data were processed

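Single-cell libraries were made with the 10x Genomics 3' kit from dissociated tissue, 1 library per stage. The values are raw UMI counts per gene and barcode, as deposited, made by the authors with Cell Ranger, version 6.0.0 per the file headers and 3.1 per the submitters' processing notes. The genome build is not given in the sources used here. Of 27271 features, 16616 have a gene symbol, and 250 of 311 genes of the gene lists have a feature.

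Counts were summed over the members of a library and given as counts per 1000000 UMIs (CPM). Shares have Clopper-Pearson 95% intervals, CPM exact Poisson intervals and ratios binomial intervals. They cover counting error only, and a count of 0 was read against a floor of 3 counts. With 1 library per stage no test was run. Genes with a symbol and at least 20 UMIs over both sums were compared, and at least 2-fold counted as past the limit. Named genes are those of the lists and, in each comparison, the 10 genes in each direction with the ratio bound farthest from 1, at 50 CPM or more in the higher group and not more abundant outside the lymphocytes, gate, ribosomal, mitochondrial and haemoglobin genes left out. The members and lists were chosen with earlier results of these data known. No doublet caller was run; barcodes with mixed markers or in the top 5% of UMIs were left out as alternatives. A planned comparison with CD3-positive barcodes lacking the 4 genes was not made, since 0, 2 and 0 barcodes met its rule. Thinning drew 1000 UMIs per barcode with a fixed seed, and the scripts were tested on simulated data. Python 3.11.15, numpy 2.4.6, scipy 1.17.1 and pandas 2.3.3 were used. A few genes of the lists are not reported here.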

Additional observations from a re-analysis of the deposited data

Results flagged for a closer look

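For 3 genes of the lymphocyte lists the log2 ratio of CPM in PTPRC members over IL26 TRDC lymphocytes was past 2-fold in opposite directions in different libraries, and the difference was not tested. TOX2, a factor of lymphocyte differentiation, had 1.42 at E85, -1.38 at E105 and -3.26 in the E125-labelled library, from 19, 37 and 1 UMIs in members against 5, 38 and 51 in IL26 TRDC lymphocytes. IL18R1, a chain of the IL-18 receptor, had 1.45 at E85 and -1.04 in the E125-labelled library, where the members held 2 UMIs. ITGA4, the alpha-4 integrin, had -1.08 at E85 (135 against 287 CPM) and 1.24 in the E125-labelled library (359 against 153 CPM). The stromal collagen gene COL1A2 also went both ways, with 95 UMIs in members against 16 in IL26 TRDC lymphocytes at E105 (ratio 2.35) and 0 against 66 in the E125-labelled library. No group has more than 1 library, so no sample stands apart within a group.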

How the results depend on the processing

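No paired analysis was possible because every library is labelled replicate 1 and each stage has 1 library. The settings on PTPRC, DDX4 and 30000 UMIs, and every alternative for the comparison with IL26 TRDC lymphocytes and for the library labelled E125 over E85, were chosen after seeing the data. The share of members stayed within its interval in 17 of 24 values, each of them 1 setting in 1 library. It was 1.98%, 3.76% and 0.273% at E85, E105 and E125 when 2 of the 4 genes were required, 2.24% at E85 and 4.11% at E105 without mixed barcodes, 2.17% at E85 with at most 10% mitochondrial UMIs and 5.97% at E105 with at least 2000 UMIs. E105 had the highest share and the library labelled E125 the lowest in each setting. The share with CD3 stayed within its interval in 24 of 27 values. The exceptions came with 1000 UMIs per barcode, chosen after seeing the data, at 6.94%, 5.96% and 0% for E85, E105 and E125. The log2 ratios of genes at E105 over E85 stayed within their intervals in 1750 of 1848 values. They reversed for 3 germ-cell-rich genes when 3 UMIs were required: MORC1 (0.92), RBBP8 (1.03) and STK31 (1.62). Of 139 list medians 14 moved.

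Counts past 2-fold depended on the settings. For E105 over E85, 718, 67, 366 and 101 genes were higher with at least 5 or 50 UMIs per gene, at least 3 UMIs of the 4 genes, and 1000 UMIs per barcode, and 1125, 98, 103 and 96 lower. Without mixed barcodes 147 were lower, and in PTPRC members 150. For the library labelled E125 over E85 the same 4 settings gave 2875, 961, 438 and 78 higher and 1983, 493, 419 and 136 lower. PTPRC members gave 361 higher and 479 lower, 2 of the 4 genes 391 and 559, and leaving out the top 5% of UMIs 541 and 450. For members over IL26 TRDC lymphocytes in E85 and E105 the same 4 settings gave 471, 30, 8 and 7 higher, and 9 were higher in PTPRC barcodes, 56 with 2 of the 4 genes, 63 with a mean over cells, 43 without mixed barcodes and 14 without the top 5%. With 5 or 50 UMIs per gene or 1000 UMIs per barcode 108, 15 and 5 were lower. In all 3 libraries the same 4 settings gave 136, 4, 0 and 1 higher, PTPRC barcodes 0, 2 of the 4 genes 0, at most 10% mitochondrial UMIs 15, no mixed barcodes 7 and no top 5% 1, and 28, 5 and 2 were lower with 5 or 50 UMIs per gene or 1000 UMIs per barcode, and 15 with 2 of the 4 genes. Fewer UMIs per gene bring in genes whose ratio is mostly counting error; the cause of the other shifts was not tested. Depth limits the library labelled E125 most, where 3 UMIs in the PTPRC members are 29.9 CPM.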

Other observations

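At E85, all 23 UMIs of B-cell genes in the PTPRC members lay in 1 of 150 cells. Immunoproteasome genes were among the more abundant transcripts of the lists: PSMB9 stood at 847 CPM at E105 and 981 CPM at E85 (0.863, 0.791 to 0.942), PSMB10 at 587 CPM at E105 and 668 CPM at E85 (0.879, 0.791 to 0.978) and PSMB8 at 374 CPM at E105 and 257 CPM at E85 (1.45, 1.24 to 1.71). The peptide transporter gene TAP1 had 47 UMIs at E105 and 3 at E85, with a ratio of 4.20 in stromal barcodes.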
